A study of Mus musculus with 16 samples.

Results

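The 10 genes described here encode the inducible brakes of the MAP kinase pathways: 6 dual-specificity phosphatases (Dusp1, Dusp2, Dusp4, Dusp5, Dusp6 and Dusp10), 2 Sprouty proteins (Spry1 and Spry2) and 2 Spred proteins (Spred1 and Spred2). They were listed by symbol, and for each the probe set annotated with that symbol alone was taken; all 10 were found among the 22180 genes with such a probe set. Dusp6 had 2 probe sets, of which the brighter stood for the gene. RNA came from CD8 T cells (negative for lineage markers, positive for the T-cell receptor beta chain and CD8) of spleens of female C57BL/6 mice, 6 weeks after transfer of leukemia cells that had arisen in Eµ-TCL1 mice, which carry a B-cell transgene and develop a disease like chronic lymphocytic leukemia (CLL). All 4 subsets thus came from leukemia-bearing hosts, and no leukemia-free CD8 cells are part of the design. PD-1hi effectors were CD127 low, CD44 intermediate to high and high for the inhibitory receptor PD-1; PD-1int effectors shared those gates but had intermediate PD-1; memory cells were CD127 high and CD44 high; naive cells were CD127 high and CD44 low. Each subset was measured on 4 Affymetrix whole-transcript arrays, 16 in all, given below by replicate number from 1 to 4.

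A T cell that meets antigen activates Ras, which passes the signal through Raf and MEK to the kinase ERK, while stress and cytokine signals run through the related kinases p38 and JNK. The dual-specificity phosphatases remove the activating phosphates from these kinases, and many of their genes are switched on by the same pathway, so that signalling induces its own brake. Sprouty and Spred proteins act further upstream, between the receptor and Raf. The gates separate naive, memory and 2 kinds of effector cells, so each pair of subsets compares these brakes between T-cell states of the same leukemic hosts.

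In a whole-transcript array without counts, the value of a gene is a log2 expression level. Levels of different genes are not compared with each other, because their probes differ in brightness. Values after a gene are log2 levels per array, or log2 differences ± the standard error of a limma fit over all 16 arrays, with n = 4 for each subset. The words rose, fell and changed are kept for a limma adjusted p under 0.05, adjusted by Benjamini-Hochberg over the 22180 genes of a comparison. In sorted bulk samples, fewer cells that express a gene and less of its RNA per cell cannot be told apart.

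The array medians lay between 6.39 and 6.49. Of the genes behind the sort gates, Il7r, which encodes CD127, averaged 4.91 in PD-1hi, 7.49 in PD-1int, 12.57 in memory and 12.97 in naive. Pdcd1, which encodes PD-1, averaged 11.40, 10.12, 7.10 and 6.80 in that order. Cd44 averaged 7.93 in PD-1hi, 8.99 in memory and 6.07 in naive. In PD-1hi against PD-1int, Pdcd1 rose while Il7r and Cd44 fell, although the effector subsets shared the CD127 and CD44 gates. The effector subsets thus differed in RNA of all 3 gate genes. The T-cell genes Cd3e, Cd8a and Cd8b1 had subset means between 11.42 and 12.93. Some markers of B and myeloid cells were at low levels: Cd79a, Ms4a1, Pax5, Ebf1, Cd14, Csf1r and Lyz2 had subset means between 4.57 and 6.58. Other markers of the same lists were higher, among them Ighm, Cd79b, Cd68 and Itgam, so B or myeloid RNA is not excluded. Of 9 measured B-cell and CLL-cell markers, 2 fell in PD-1hi against naive, Ighm (8.95 against 12.63) and Cd79b (6.91 against 7.88), and 7 did not pass. The summed linear signal of the list was 838 to 1342 in PD-1hi, 1022 to 1654 in PD-1int, 5479 to 6059 in memory and 6671 to 7268 in naive. Most of the sum in memory and naive is the signal of Ighm alone. Of 10 myeloid markers, 2 rose in PD-1hi and PD-1int against naive, Cd68 (10.99, 10.80 and 7.94) and Itgam (7.34, 7.86 and 6.31), and 8 did not pass. The sums were 2058 to 3097 in PD-1hi, 2298 to 2720 in PD-1int, 777 to 844 in memory and 648 to 883 in naive. Most of the sum in the effector subsets is the signal of Cd68 alone. All 11 measured mitosis genes rose in each of the 3 antigen-experienced subsets against naive; their summed signal was 15886 to 20479 in PD-1hi, 8709 to 12420 in PD-1int, 2790 to 7017 in memory and 882 to 1170 in naive. Of 4 measured natural killer and gamma-delta T-cell markers 1 rose and 0 fell in PD-1hi against naive, with sums of 475 to 775 in PD-1hi, 874 to 1537 in PD-1int, 489 to 532 in memory and 299 to 357 in naive. The part of dividing cells and of these marker genes in the results below was not tested.

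The promoters of Dusp1, Dusp2 and Dusp5 hold a complete match to a motif of factors that act at early-response genes and are shown for that reason, beside that of Dusp6, which holds none and whose levels followed those of Dusp5. Sequences are the 250 bases before the annotated start in RefSeq (build GRCm38.p6), 5′ to 3′ on the strand of the gene, with the matches in capitals. Dusp1 lies on the minus strand at chr17:26508473-26508722 in this window, Dusp2 on the plus strand at chr2:127335909-127336158, Dusp5 on the plus strand at chr19:53528895-53529144 and Dusp6 on the plus strand at chr10:99262981-99263230.
Dusp1: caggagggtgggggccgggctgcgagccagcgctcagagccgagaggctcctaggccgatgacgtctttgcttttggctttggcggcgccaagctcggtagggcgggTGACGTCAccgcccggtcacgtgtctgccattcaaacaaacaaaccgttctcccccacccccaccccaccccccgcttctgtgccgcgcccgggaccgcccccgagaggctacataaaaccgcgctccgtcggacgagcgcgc
Dusp2: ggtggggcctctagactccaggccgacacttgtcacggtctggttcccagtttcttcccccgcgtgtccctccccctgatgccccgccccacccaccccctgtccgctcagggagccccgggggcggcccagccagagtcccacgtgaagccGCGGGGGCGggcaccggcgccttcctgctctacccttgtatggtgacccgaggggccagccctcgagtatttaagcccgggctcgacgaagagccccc
Dusp5: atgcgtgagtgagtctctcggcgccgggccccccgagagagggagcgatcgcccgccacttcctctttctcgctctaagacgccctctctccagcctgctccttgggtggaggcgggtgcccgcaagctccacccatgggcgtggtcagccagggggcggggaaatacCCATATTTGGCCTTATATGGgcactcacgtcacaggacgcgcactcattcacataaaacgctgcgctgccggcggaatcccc
Dusp6: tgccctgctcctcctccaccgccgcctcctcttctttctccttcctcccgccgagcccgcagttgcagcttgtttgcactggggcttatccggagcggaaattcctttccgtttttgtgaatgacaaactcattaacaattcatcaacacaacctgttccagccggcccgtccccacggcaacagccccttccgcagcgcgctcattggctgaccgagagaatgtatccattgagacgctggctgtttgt

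In Dusp1 the capitals mark the cAMP response element TGACGTCA, 143 to 136 bases before the start, a motif that 1.55% of the 32851 RefSeq promoter windows of the same length hold. In Dusp2 they mark the EGR motif GCGNGGGCG at 98 to 90 bases before the start, which 4.70% of windows hold; EGR factors are made in response to ERK. In Dusp5 they mark 2 CArG boxes, the binding motif of serum response factor, which lie end to end from 82 to 73 and from 72 to 63 bases before the start. A CArG box is held by 1.47% of windows, and 2 or more are held by 6 of the 32851 (0.0183%). The AP-1 motif TGANTCA (6.75% of windows) and the ETS motif CCGGAAGT (2.88%) had no match in the 9 genes with a window, and none of the 5 motifs matched in Dusp10, Spry1, Spry2, Spred1 or Spred2. Both strands were searched; no window was at hand for Dusp4. A match describes the letters only. The windows of the 9 genes were 56.0 to 70.8% G and C, against a median of 52.4% over all windows.

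Against naive cells, several of these brakes were higher in the effector subsets, with the ERK phosphatases Dusp5 and Dusp6 showing the widest differences. In PD-1hi 5 of the 10 genes rose (Dusp5, Dusp6, Dusp1, Dusp4 and Spry2) and 1 fell (Dusp10), where 13.4% of all genes rose and 13.7% fell. In PD-1int the counts were again 5 and 1, with the same genes, where 11.9% of all genes rose and 10.8% fell. In memory 2 rose (Dusp5 and Dusp6) and 2 fell (Dusp1 and Dusp10), where 6.70% of all genes rose and 5.02% fell. These shares include dim genes, while the 10 genes lie at percentiles 41.5 to 94.6 of mean level. Without the 40% dimmest genes, 2939 genes rose in PD-1hi and 1653 in memory against naive, beside 2981 and 1487 over all genes. In PD-1int 2707 rose, beside 2639 over all genes. Those that fell numbered 2943 in PD-1hi, 2302 in PD-1int and 1188 in memory, beside 3039, 2398 and 1114. As these counts come from fewer genes, the shares that rose and fell are higher among brighter genes. The shares over all genes are thus a low yardstick for the 10 genes. The median log2 difference of the 10 genes was 0.61 in PD-1hi, 0.43 in PD-1int and 0.22 in memory, beside -0.014, -0.03 and -0.016 over all genes.

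**Figure D1:**
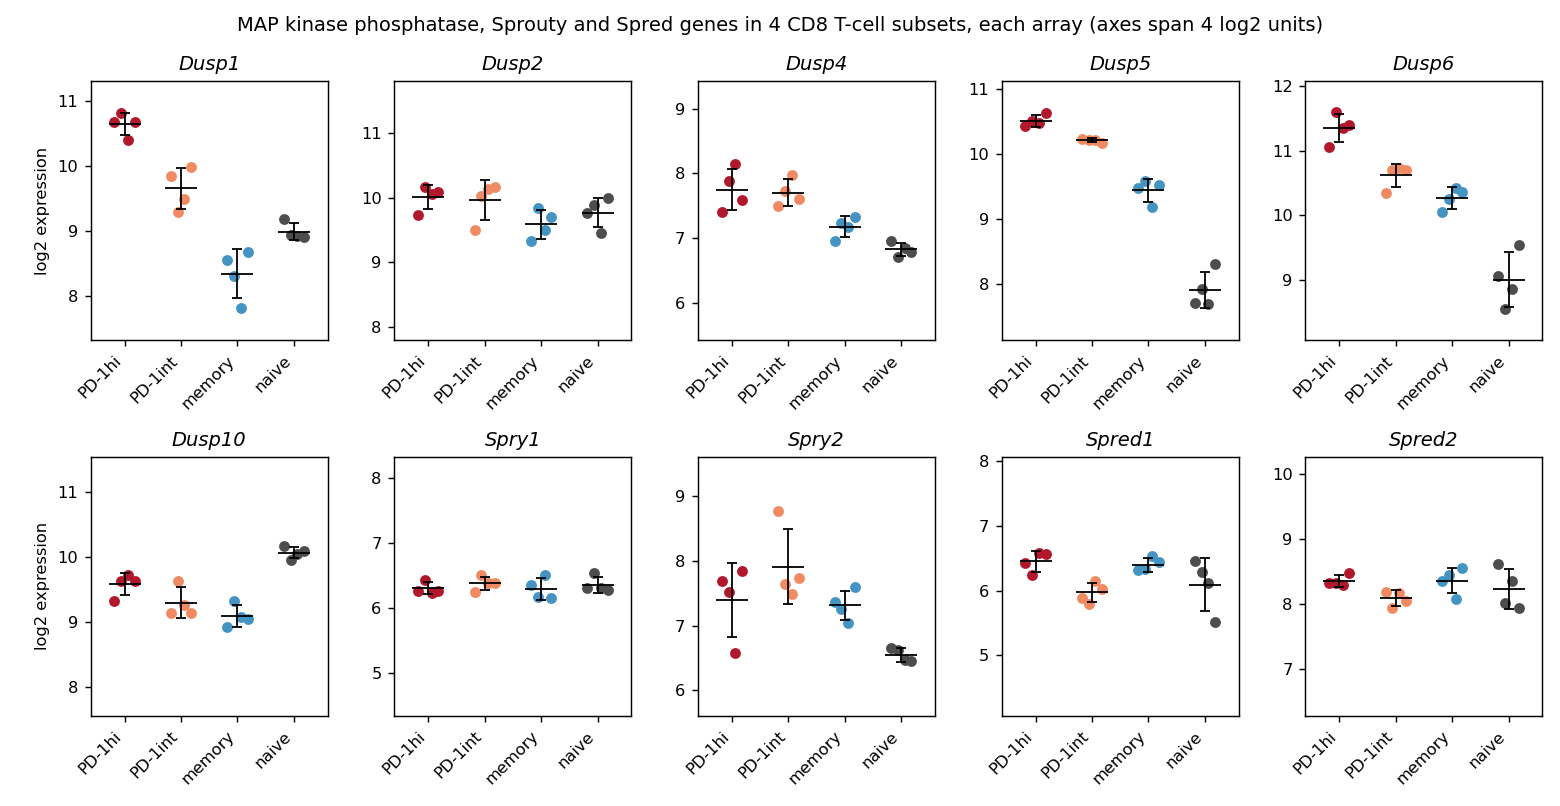
Log2 expression of the 10 genes (vertical axis, each panel spanning 4 log2 units) on each array of the 4 subsets (horizontal axis); points are arrays, horizontal bars the subset mean and error bars the SD (n = 4). Dusp5 and Dusp6 step down from PD-1hi to naive, Dusp1 is lowest in memory, Dusp10 is highest in naive, and Spry1 stays between 6.15 and 6.54 on all 16 arrays.

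Dusp5, a nuclear phosphatase specific for ERK, showed the widest gap between subset means among the 10 genes. Its levels were 10.43, 10.51, 10.48 and 10.63 in PD-1hi and 10.23, 10.22, 10.21 and 10.17 in PD-1int. They were 9.47, 9.59, 9.18 and 9.52 in memory and 7.70, 7.91, 7.68 and 8.30 in naive. The arrays of the 4 subsets did not overlap, and the order ran from PD-1hi through PD-1int and memory to naive. Against naive, Dusp5 rose by 2.62 ± 0.12 in PD-1hi (6.13-fold, limma adjusted p = 7.21e-12), by 2.31 ± 0.12 in PD-1int (4.96-fold, adjusted p = 5.58e-11) and by 1.54 ± 0.12 in memory (2.91-fold, adjusted p = 3.38e-08). It also rose against memory in PD-1hi (1.07 ± 0.12, adjusted p = 1.49e-06) and in PD-1int (0.77 ± 0.12, adjusted p = 1.20e-04). Between PD-1hi and PD-1int the difference was 0.31 ± 0.12 with a 95% interval of 0.06 to 0.55, and it did not pass over all genes (adjusted p = 0.208).

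Dusp6, which holds back ERK in the cytoplasm, followed the same order. It reached 11.05, 11.59, 11.35 and 11.39 in PD-1hi and 10.35, 10.70, 10.74 and 10.70 in PD-1int, against 10.05, 10.25, 10.43 and 10.37 in memory and 9.06, 8.56, 8.86 and 9.55 in naive. All naive arrays lay below all others, all PD-1hi arrays lay above all others, and PD-1int and memory overlapped. Against naive it rose by 2.34 ± 0.17 in PD-1hi (5.06-fold, limma adjusted p = 3.62e-09), 1.62 ± 0.17 in PD-1int (3.06-fold, adjusted p = 6.87e-07) and 1.27 ± 0.17 in memory (2.40-fold, adjusted p = 3.73e-05). It rose in PD-1hi against memory as well (1.08 ± 0.17, adjusted p = 8.10e-05), while PD-1int minus memory was 0.35 ± 0.17 and did not pass (adjusted p = 0.199).

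The second Dusp6 probe set is dimmer, with a mean of 5.51 over the 16 arrays against 10.31 for the brighter one. It read 6.16, 6.16, 5.53 and 6.15 in PD-1hi, 5.56, 5.88, 5.49 and 5.82 in PD-1int, 5.08, 5.04, 5.42 and 5.90 in memory and 4.73, 4.87, 4.72 and 5.69 in naive. The subset means kept the same order, but single arrays overlapped. In a fit of all probe sets with 1 symbol it was higher than naive by 1.00 ± 0.22 in PD-1hi (limma adjusted p = 0.00168) and 0.69 ± 0.22 in PD-1int (adjusted p = 0.0296), and by 0.36 ± 0.22 in memory, which did not pass (adjusted p = 0.384).

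Dusp1, an early-response phosphatase that acts mainly on p38 and JNK, rose in both effector subsets and fell in memory. It measured 10.68, 10.82, 10.41 and 10.68 in PD-1hi and 9.85, 9.30, 9.49 and 9.99 in PD-1int, against 8.55, 8.31, 7.81 and 8.67 in memory and 9.18, 8.94, 8.93 and 8.91 in naive. No 2 subsets overlapped, and memory lay lowest. Dusp1 rose against naive by 1.66 ± 0.17 in PD-1hi (3.15-fold, limma adjusted p = 3.81e-07) and by 0.67 ± 0.17 in PD-1int (1.59-fold, adjusted p = 0.0064). In memory it fell by 0.65 ± 0.17 on the log2 scale (adjusted p = 0.0141), and against memory it was higher by 2.31 ± 0.17 in PD-1hi (4.96-fold, adjusted p = 1.06e-08) and by 1.32 ± 0.17 in PD-1int (adjusted p = 1.84e-05).

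Because Dusp1 also responds when tissue is taken apart, 16 early genes known from such handling were read beside it. In PD-1hi against naive 5 of them rose and 2 fell, where 13.4% of all genes rose and 13.7% fell. Their median log2 difference was 0.00 beside 1.66 for Dusp1. Egr1 (1.83 ± 0.12) and Ier3 (1.63 ± 0.13) were among those that rose, and Jun fell by 1.49 ± 0.26. In memory against naive 2 rose and 2 fell, where 6.70% of all genes rose and 5.02% fell. Fosb (0.47 ± 0.10) and Hspa8 (0.21 ± 0.06) rose, against the direction of Dusp1 there. Jun (-1.13 ± 0.26, limma adjusted p = 0.00648) and Nfkbia (-0.52 ± 0.08) fell, as Dusp1 did. Egr1 was at 7.53 in memory and 7.38 in naive. The list shares Egr1, Jun, Junb, Fos, Fosb, Ier2 and Ier3 with the targets of ERK, so handling and signalling cannot be told apart here, and the part of handling in the Dusp1 values was not tested.

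Dusp4, a nuclear relative of Dusp1 that acts on ERK and JNK, was higher in both effector subsets and nearly level between them. It read 7.40, 7.89, 8.14 and 7.59 in PD-1hi, 7.49, 7.73, 7.97 and 7.61 in PD-1int, 6.96, 7.24, 7.17 and 7.33 in memory and 6.96, 6.71, 6.85 and 6.79 in naive. Every effector array lay above every memory and naive array, and memory and naive met at 6.96. Dusp4 rose against naive by 0.93 ± 0.14 in PD-1hi (1.90-fold, limma adjusted p = 3.56e-05) and 0.87 ± 0.14 in PD-1int (1.83-fold, adjusted p = 9.95e-05). Against memory it rose by 0.58 ± 0.14 in PD-1hi (adjusted p = 0.00423) and 0.52 ± 0.14 in PD-1int (adjusted p = 0.0128, and 0.0533 without PD-1int replicate 3). PD-1hi minus PD-1int was 0.06 with a 95% interval of -0.23 to 0.35.

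Dusp10, a phosphatase of JNK and p38 that restrains T-cell cytokine production in mice, ran the other way. Levels were 9.33, 9.63, 9.72 and 9.64 in PD-1hi, 9.14, 9.64, 9.26 and 9.14 in PD-1int, 8.93, 9.33, 9.07 and 9.04 in memory and 10.18, 9.95, 10.05 and 10.10 in naive. Naive arrays lay above all others. Against naive Dusp10 fell by 0.49 ± 0.12 in PD-1hi (limma adjusted p = 0.00361), by 0.78 ± 0.12 in PD-1int (adjusted p = 6.54e-05) and by 0.98 ± 0.12 in memory (adjusted p = 1.34e-05). PD-1hi was above memory (0.49 ± 0.12, adjusted p = 0.00452), and the 0.29 ± 0.12 between PD-1hi and PD-1int did not pass (adjusted p = 0.261).

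Dusp2, a nuclear phosphatase of blood cells that acts on ERK and p38, differed little. Its levels ran from 9.74 to 10.17 in PD-1hi, 9.50 to 10.17 in PD-1int, 9.33 to 9.84 in memory and 9.46 to 9.99 in naive, and all pairs of subsets overlapped. PD-1hi minus memory was the widest gap (0.42 ± 0.15, 95% interval 0.10 to 0.74, limma adjusted p = 0.0579). It passed in 4 of 16 fits that each left out 1 array (adjusted p from 0.0233 to 0.182).

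Of the Sprouty genes, Spry2 changed and Spry1 did not pass. Spry2, which blocks Ras activation downstream of growth factor and antigen receptors, read 7.69, 7.51, 6.57 and 7.84 in PD-1hi and 8.77, 7.64, 7.49 and 7.73 in PD-1int, against 7.37, 7.26, 7.04 and 7.59 in memory and 6.66, 6.62, 6.47 and 6.45 in naive. All PD-1int and memory arrays exceeded the naive ones, while PD-1hi replicate 3 lay within the naive range and PD-1int replicate 1 stood above all other arrays. Against naive Spry2 rose by 1.36 ± 0.26 in PD-1int (2.56-fold, limma adjusted p = 6.09e-04) and by 0.85 ± 0.26 in PD-1hi (1.80-fold, adjusted p = 0.0183). The PD-1hi call was lost without PD-1hi replicate 1 (adjusted p = 0.0598) or replicate 4 (adjusted p = 0.0694), and without replicate 3 the difference was 1.13. In memory the difference of 0.76 ± 0.26 did not pass (adjusted p = 0.0663). It passed without PD-1int replicate 1 (adjusted p = 0.0184) or PD-1hi replicate 3 (adjusted p = 0.0207), neither of which belongs to that comparison.

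Spry1, a Sprouty protein that T cells are known to induce on activation, had subset means of 6.30 in PD-1hi, 6.38 in PD-1int, 6.29 in memory and 6.35 in naive. These levels are close to the array medians, and the files carry no detection call, so an absent transcript cannot be told from a low one. Its 95% interval for PD-1hi minus naive was -0.25 to 0.14.

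The Spred genes, whose products bind Ras and the GTPase-activating protein neurofibromin, did not pass in any of the 6 comparisons. Spred1 averaged 6.45 ± 0.16 in PD-1hi, 5.97 ± 0.15 in PD-1int, 6.40 ± 0.11 in memory and 6.09 ± 0.41 in naive (SD, n = 4). All PD-1int arrays (5.80 to 6.15) lay below all PD-1hi arrays (6.24 to 6.58) and all memory arrays (6.31 to 6.54). PD-1hi minus PD-1int was 0.49 ± 0.15 (limma adjusted p = 0.095) and PD-1int minus memory was -0.44 ± 0.15 (adjusted p = 0.0566). The naive arrays of Spred1 ranged from 5.52 to 6.45, the widest spread of that gene. Spred1 averaged 6.23 over the 16 arrays, below the median of every array, so here too an absent transcript cannot be told from a low one. Spred2 averaged 8.35 ± 0.09 in PD-1hi, 8.09 ± 0.12 in PD-1int, 8.36 ± 0.20 in memory and 8.23 ± 0.31 in naive. For Spred2 too, all PD-1hi arrays (8.29 to 8.48) lay above all PD-1int arrays (7.93 to 8.19), with a difference of 0.27 ± 0.13 (adjusted p = 0.375). The share of all genes whose arrays separate in this way was not counted, so the separation is not read as a result for either Spred gene.

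**Figure D2:**
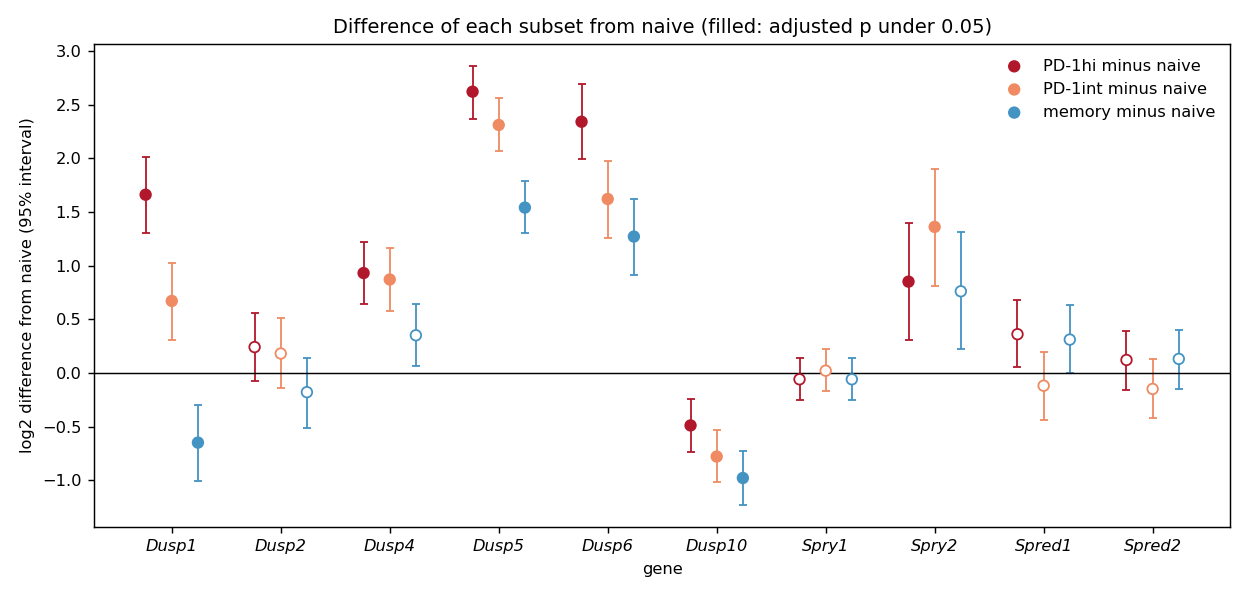
Log2 difference of PD-1hi, PD-1int and memory from naive (vertical axis) for each of the 10 genes (horizontal axis); bars are 95% intervals of the limma fit, and filled points passed at an adjusted p under 0.05. Dusp5 and Dusp6 are above 0 in all 3 subsets, Dusp10 is below 0 in all 3, and Dusp1 is above 0 in both effector subsets and below it in memory.

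Within the effector cells, higher PD-1 went with more Dusp1 and Dusp6. In PD-1hi against PD-1int 2 of the 10 genes rose and 0 fell (limma), where 1.37% of all genes rose and 1.94% fell. At an unadjusted p under 0.05 the 10 genes gave 5 and 0. The share of all genes there was not counted, so these counts are not read as a result. Dusp1 was higher by 0.99 ± 0.17 (1.98-fold, adjusted p = 0.00218), and it passed in all 16 fits that each left out 1 array. Dusp6 was higher by 0.72 ± 0.17 (1.65-fold, adjusted p = 0.0205), and it did not pass without PD-1int replicate 1 (adjusted p = 0.0823), PD-1hi replicate 2 (0.0682) or PD-1hi replicate 4 (0.0594). With the mean of its 2 probe sets the Dusp6 difference was 0.52 ± 0.17 (adjusted p = 0.128), and the dimmer probe set alone gave 0.31 ± 0.22 (adjusted p = 0.595). Dusp5, Spred1 and Spred2 did not pass, though each was higher on every PD-1hi array than on any PD-1int array. How many of all genes separate in this way was not counted.

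Against memory cells, PD-1hi cells held more of 5 of the 10 genes (Dusp1, Dusp5, Dusp6, Dusp4 and Dusp10) and less of 0 (limma), where 10.8% of all genes rose and 11.1% fell. PD-1int cells held more of 3 (Dusp1, Dusp5 and Dusp4) and less of 0, where 8.49% of all genes rose and 7.66% fell. At an unadjusted p under 0.05 the counts were 6 and 0 in PD-1hi and 5 and 1 in PD-1int. The share of all genes at that threshold was not counted, so these counts too are not read as a result. The comparisons share their control arrays, so their values for a gene are not independent of each other.

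The other dual-specificity phosphatases were counted in the same way. Of 14 measured, 1 rose and 2 fell in PD-1hi against naive, where 13.4% of all genes rose and 13.7% fell. In PD-1int 2 rose and 3 fell (11.9% and 10.8% of all genes), and in memory 1 rose and 0 fell (6.70% and 5.02%). With so few genes these counts are not read as a trait of the family, and no list was tested as a whole. Dusp7, a cytoplasmic ERK phosphatase closely related to Dusp6, went the opposite way from it: 7.87, 7.72, 7.74 and 7.36 in PD-1hi and 8.54, 8.68, 8.39 and 8.22 in PD-1int, against 9.64, 9.65, 9.50 and 9.67 in memory and 9.61, 9.46, 9.12 and 9.50 in naive. All effector arrays lay below all memory and naive arrays, and PD-1hi lay below PD-1int. Dusp7 fell against naive by 1.75 ± 0.12 in PD-1hi (limma adjusted p = 3.12e-09) and by 0.97 ± 0.12 in PD-1int (adjusted p = 9.31e-06), and PD-1hi was lower than PD-1int by 0.79 ± 0.12 (adjusted p = 0.00106).

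Dusp12, an atypical phosphatase, fell by 0.83 ± 0.11 in PD-1hi (adjusted p = 6.03e-06) and by 0.45 ± 0.11 in PD-1int (adjusted p = 0.00361) against naive. Dusp14, an atypical phosphatase that dampens T-cell receptor signals in mice, rose by 0.42 ± 0.11 in PD-1hi (adjusted p = 0.0055). Dusp3 rose in memory (0.79 ± 0.11, adjusted p = 1.04e-04). The 3 other Sprouty and Spred genes, Spry3, Spry4 and Spred3, passed in 0 of the 6 comparisons (limma), with log2 differences of 0.08 to 0.14 in PD-1hi against naive.

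**Figure D3:**
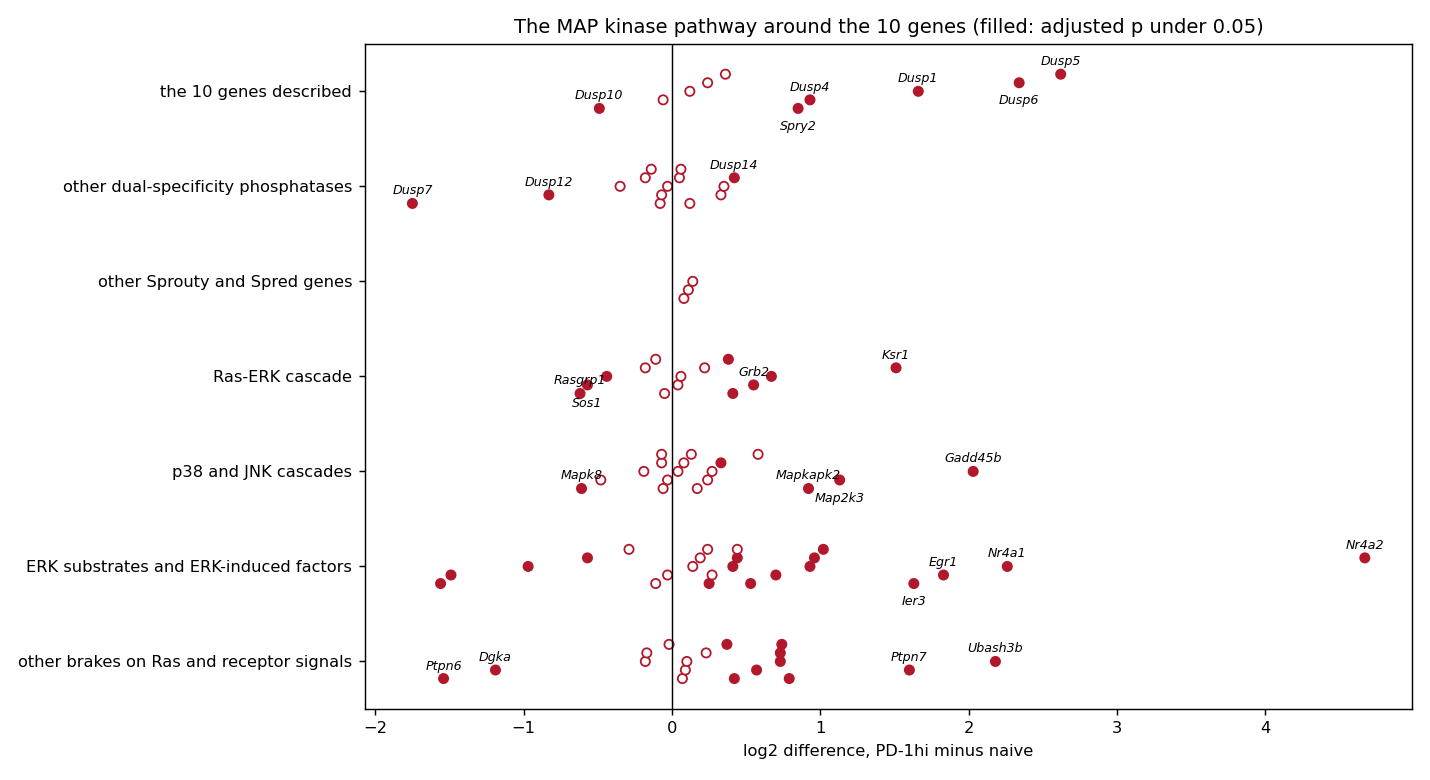
Log2 difference of PD-1hi from naive (horizontal axis) for every measured gene of 6 lists of the MAP kinase pathway and for the 10 genes described (rows); filled points passed at an adjusted p under 0.05, and the names are those of the passing genes with the smallest adjusted p, up to 4 a list and 6 in the top row. The 10 genes reach from -0.49 (Dusp10) to 2.62 (Dusp5), while Dusp7 stands at -1.75.

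Genes of the cascades that these brakes act on changed in both directions. Of 14 measured genes of the Ras-ERK cascade, 5 rose and 3 fell in PD-1hi against naive, with a median log2 difference of 0.05. In PD-1int 8 rose and 3 fell, and in memory 2 rose and 2 fell. The shares of all genes that rose and fell were 13.4% and 13.7% in PD-1hi, 11.9% and 10.8% in PD-1int, and 6.70% and 5.02% in memory. Ksr1, the scaffold that holds Raf, MEK and ERK together, rose by 1.51 ± 0.10 in PD-1hi (limma adjusted p = 1.50e-09) and 1.32 ± 0.10 in PD-1int (adjusted p = 1.48e-08). Grb2, an adaptor, rose by 0.55 ± 0.07 in PD-1hi, while Rasgrp1, the main Ras activator of T cells, and Sos1, another, fell by 0.62 ± 0.09 and 0.57 ± 0.08. Between PD-1hi and PD-1int 0 of the 14 rose and 0 fell (limma), where 1.37% of all genes rose and 1.94% fell. At an unadjusted p under 0.05 the counts were 0 and 3, but the share of all genes there was not counted.

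Of 18 measured genes of the p38 and JNK cascades, 4 rose and 1 fell in PD-1hi against naive. In PD-1int 5 rose and 0 fell, and in memory 2 rose and 2 fell. The shares of all genes were 13.4% and 13.7% in PD-1hi, 11.9% and 10.8% in PD-1int, and 6.70% and 5.02% in memory. Gadd45b, an activator of these cascades, rose by 2.03 ± 0.20 in PD-1hi (limma adjusted p = 2.43e-07) and 1.67 ± 0.20 in PD-1int. Map2k3, a kinase that activates p38, rose by 1.13 ± 0.16 in PD-1hi, and Mapkapk2, a kinase that p38 activates, by 0.92 ± 0.12. Mapk8, a JNK gene, fell by 0.61 ± 0.17 (adjusted p = 0.00904).

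Among 24 measured substrates and induced targets of ERK, 12 rose and 4 fell in PD-1hi against naive (median log2 difference 0.34). In PD-1int 14 rose and 3 fell (0.38), and in memory 4 rose and 2 fell (0.08). The shares of all genes were 13.4% and 13.7% in PD-1hi, 11.9% and 10.8% in PD-1int, and 6.70% and 5.02% in memory. Those that fell in PD-1hi were Myc (-1.56 ± 0.19), Jun (-1.49 ± 0.26), Rps6ka3 (-0.97 ± 0.09) and Elk4 (-0.57 ± 0.08). The 4 with the smallest adjusted p in PD-1hi were the receptor-induced factors Nr4a2 (4.67 ± 0.17), Egr1 (1.83 ± 0.12) and Nr4a1 (2.26 ± 0.19) and the early gene Ier3 (1.63 ± 0.13). In memory 1 of these 4 rose against naive, Nr4a2 (0.60 ± 0.17, limma adjusted p = 0.0248). The memory minus naive differences of Nr4a1 (0.55 ± 0.19), Ier3 (0.39 ± 0.13) and Egr1 (0.15 ± 0.12) did not pass. In PD-1hi against PD-1int 2 of the 24 rose, Nr4a2 (1.73 ± 0.17) and Egr1 (0.76 ± 0.12), and 1 fell. Of all genes 1.37% rose there and 1.94% fell.

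Other brakes on Ras and on the T-cell receptor changed in both directions. In PD-1hi against naive 9 of 18 measured rose and 2 fell, where 13.4% of all genes rose and 13.7% fell. In PD-1int 9 rose and 2 fell (11.9% and 10.8% of all genes), and in memory 6 rose and 1 fell (6.70% and 5.02%). Ptpn7, a lymphocyte phosphatase that also dephosphorylates ERK and p38, rose by 1.60 ± 0.14 in PD-1hi (limma adjusted p = 4.55e-08), 1.24 ± 0.14 in PD-1int and 0.72 ± 0.14 in memory. Ubash3b, a phosphatase of the receptor kinase Zap70, rose by 2.18 ± 0.10, 1.71 ± 0.10 and 0.94 ± 0.10 in the same order. Dgka, a kinase that removes the diacylglycerol that activates Rasgrp1, fell by 1.19 ± 0.06 in PD-1hi, and Ptpn6, a phosphatase recruited by inhibitory receptors, fell by 1.54 ± 0.09.

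**Figure D4:**
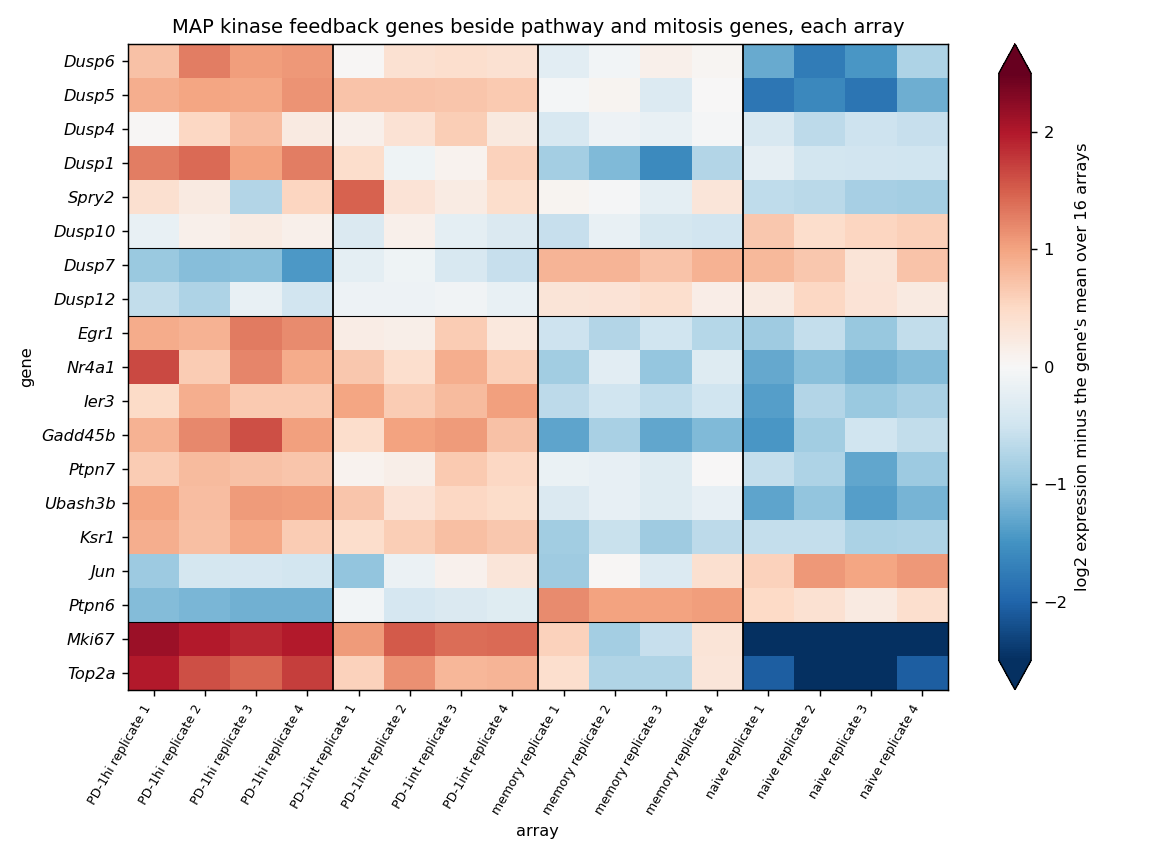
Log2 expression of 6 of the 10 genes, 2 other dual-specificity phosphatases, 9 pathway genes and 2 mitosis genes (rows) on each of the 16 arrays (columns, by subset), after subtracting each gene's mean over the arrays; the colour scale ends at -2.5 and 2.5, and values beyond are drawn in the end colours. Dusp7 and Dusp12 are low on the effector arrays where Dusp5, Dusp6 and Egr1 are high, and Dusp1 is lowest on the memory arrays.

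Over the 16 arrays, the genes most like each of the 10 were ranked by Pearson r. The arrays form 4 subsets, so for genes whose subset means differ r mostly reflects those means. Dusp5 was nearest to Sh2d2a, a T-cell adaptor (r = 0.992), Nkg7, a cytotoxic granule protein (0.991), and Unc119 (0.990). Dusp6 was nearest to Cst7, a cystatin (0.964), Gpr174 (0.961) and again Sh2d2a (0.961). Dusp1 was nearest to Prkch, a protein kinase C (0.970), Galnt2 (0.967) and Fry (0.957), and Dusp4 to Rab11fip4 (0.950), Rinl (0.945) and Ccdc25 (0.944). Dusp10 was nearest to Sipa1l1 (0.941), and Spry2 to Pvt1 (0.859), Anxa6 (0.840) and Rasgrp2 (0.836). The highest r of Dusp2, Spry1, Spred1 and Spred2 lay between 0.780 and 0.888. These 4 genes passed in 0 of the 6 comparisons, so their r need not reflect the subsets, and each is the highest of many genes. Among the 10 genes themselves, Dusp5 and Dusp6 had an r of 0.95, both had 0.86 with Dusp4, and Dusp1 had 0.56 to 0.63 with Dusp2, Dusp4, Dusp5 and Dusp6.

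The 10 genes lie on 9 chromosomes, with Dusp2 and Spred1 sharing chromosome 2, and differ in size. On GRCm38.p6 the spans of Dusp2 (2219 bases), Dusp1 (2882), Dusp6 (4259), Spry1 (4653) and Spry2 (4873) were below the 23rd percentile of 21896 protein-coding genes, whose median is 17149 bases. Dusp10 (41256), Spred1 (61209) and Spred2 (99585) were above the 73rd. Short genes were found both among those that rose against naive in PD-1hi (Dusp1, Dusp6 and Spry2) and among those that did not pass (Dusp2 and Spry1).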

How the data were processed

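RNA of 16 sorted samples, 4 per CD8 subset, was isolated with an RNeasy Micro kit, labelled with the WT Pico reagents and measured on Mouse Gene ST arrays of Affymetrix, per the labels' protocols. The deposited values are log2 expression per probe set; the authors used Affymetrix Power Tools, per the submitters' processing notes. Its version and the summarisation are not stated in the labels or files, and the log2 base was read from the range of 2.35 to 14.13. No 2 arrays were identical.

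Of 41345 probe sets, the platform annotation names 1 gene for 23521, several for 1814 and none for 16010; Entrez identifiers matched RefSeq for 23328 and changed 0 symbols. The brightest probe set on average stood for each of 22180 genes, with no filter on dim genes. The number of arrays limits the precision.

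All arrays were fitted with limma 3.58.1 under R 4.3.3 (lmFit, 1 mean for each subset, no block, then eBayes) for 6 pairs of subsets. The labels do not say that replicates come from separate mice, so p-values measure the spread between these samples. The fit was tested on simulated data with known changes.

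The 10 genes, the gene lists and the tests were chosen with earlier results of these data known. Named list genes are up to 4 per list with the smallest adjusted p in PD-1hi minus naive and any other phosphatase, Sprouty or Spred gene; Egr1, Jun and Nr4a genes were followed in other comparisons. Marker genes of T, B and myeloid cells beyond that rule, and the ERK targets that fell in PD-1hi against naive, were named after their values were seen. So were the handling genes that changed in memory against naive. The 3 most similar genes by Pearson r exclude small RNAs, receptor gene segments and predicted loci. Alternatives were a replicate block, only the 8 arrays compared, median centring, quantile normalization, averaging the probe sets of each gene, dropping the 40% dimmest genes, trended and robust eBayes, leaving out each array, and, added after the data were seen, the other Dusp6 probe set.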

Additional observations from a re-analysis of the deposited data

Results flagged for a closer look

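In a group of 4 arrays, an array was singled out when its gap to the nearest other array, divided by the range of the group, exceeded Dixon's 95% critical value; chance singles out about 5% of groups, and 4 of 40 were found. Dusp1 in naive replicate 1 was 9.18, with the other naive arrays at 8.91 to 8.94. Dusp6 in PD-1int replicate 1 was 10.35, with the others at 10.70 to 10.74, and the Dusp6 difference between PD-1hi and PD-1int no longer passed without that array (0.63, limma adjusted p = 0.0823). Spry1 in naive replicate 2 was 6.54 beside 6.27 to 6.30, and Spry1 in PD-1hi replicate 2 was 6.43 beside 6.23 to 6.26.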

How the results depend on the processing

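Of 60 differences (10 genes in 6 comparisons), 26 passed. Quantile normalization and median centring changed none of the 60 calls. Subsets share replicate numbers, and the sample titles share the codes AT1 to AT4, without saying whether a code is one mouse. Of 24 same-numbered pairs 2 had deviations correlated above 0.1 (r from -0.048 to 0.151). Pairs with different numbers were not compared, so these values cannot decide whether the numbers pair samples. The main fit has no block. The replicate block ended no call and added 3: Spry2 in memory against naive (0.76, limma adjusted p = 0.0215), Dusp2 in PD-1hi against memory (0.42, adjusted p = 0.0133) and Dusp2 in PD-1int against memory (0.37, adjusted p = 0.0397). Using only the 8 arrays compared added 5 calls and ended none. In memory against naive 4 genes then rose, with Spry2 (adjusted p = 0.00122) and Dusp4 (0.0407) in addition, and in PD-1int against memory 1 fell, Spred1 (-0.44, adjusted p = 0.00754). Spred1 rose in PD-1hi against PD-1int (0.49, adjusted p = 0.0362), which makes 3 genes higher there, and Dusp2 rose in PD-1hi against memory (0.42, adjusted p = 0.0338). Without the 40% dimmest genes 3 calls were added: the Spred1 fall (adjusted p = 0.0384), the same Dusp2 rise (0.0397) and Spry2 in memory against naive (0.0461). Trend and robust settings added that Spred1 fall (adjusted p = 0.048) and that Dusp2 rise (0.0492). With probe sets averaged per gene 1 of the 10 genes rose in PD-1hi against PD-1int. Leaving out each array gave 1 to 3 of the 10 genes higher there, and 0 to 1 lower in PD-1int against memory (1 without naive replicate 1 or 4). Over all genes, PD-1hi against PD-1int gave 176 to 314 higher (303 with all arrays, 184 without PD-1int replicate 1 and 176 without PD-1hi replicate 4) and 286 to 447 lower (431 with all arrays, 286 without PD-1int replicate 1). In 11 of 1386 values under an alternative the sign differed, in each case where neither value passed. The causes were not tested.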
